A study of Homo sapiens with 8 samples.

Results

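The mitochondrial ribosomal protein genes were followed in outer and inner cells of breast epithelial acini. Members were all probes whose deposited symbol begins with MRPL or MRPS followed by a number. This gave 91 of the 20589 probes of the array, for 76 genes, with 59 probes for 47 genes of the large subunit (MRPL) and 32 probes for 29 genes of the small subunit (MRPS). MCF10A-5E is a single clone of MCF10A, an immortalised, non-tumorigenic human breast epithelial line. Embedded in Matrigel with EGF, horse serum, hydrocortisone, cholera toxin and insulin, its cells grow into acini, spheres with an outer layer in contact with matrix around cells that lack this contact. Acini of day 6 were sectioned at 8 µm, and each sample took about 50 cells of the outer layer or of the interior by laser microdissection. Poly(A) PCR amplified the RNA of these cells for Illumina HumanRef-8 v2.0 BeadChips, with 4 arrays of outer and 4 of inner cells. Both groups share the clone, the medium and the day, and no drug or genetic change separates them.

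Mitochondria carry their own ribosome, which makes the few proteins encoded by mitochondrial DNA, all of them core subunits of the respiratory chain and ATP synthase. Its RNAs come from mitochondrial DNA, whereas its proteins are encoded in the nucleus, translated in the cytosol and imported. The small subunit decodes the messenger RNA, and the large subunit joins the amino acids and passes the chain out at the inner membrane. Many of the proteins descend from bacterial ribosomal proteins, and others were added in the mitochondrial lineage. A symbol does not always give the place of a protein: MRPS30 and MRPS18A sit in the large subunit, and MRPS36 is now assigned to the α-ketoglutarate dehydrogenase complex. They are kept here with the small subunit, as their symbols place them.

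Each array detected between 6429 and 7000 probes at a detection p below 0.01, with a mean intensity of 344.4 to 533.0. Across tested probes, which are not independent replicates, arrays of a group correlated at 0.761 to 0.776 and arrays of different groups at 0.748 to 0.769. Of 12 breast epithelial marker genes 9 were tested, among them the basal keratins KRT5, KRT14 and KRT17, while CDH1 and KRT6A were detected on 0 arrays. Markers of other cell types were mostly not detected, with 3 of 12 fibroblast, 2 of 12 endothelial and 2 of 17 leukocyte genes tested. PECAM1, CDH5 and VWF of endothelium and CD3E and LYZ of leukocytes were detected on 0 arrays. Of the markers that were measured, DCN of fibroblasts, at 10.41 to 12.08, and CD68 of macrophages, at 6.22 to 8.30, were detected on all 8 arrays. ENG was detected on 4 outer and 3 inner arrays, FAP on 3 and 3, COL1A2 on 4 and 2, CSF1R on 3 and 2 and ROBO4 on 2 and 2. Among untested probes, CD14 was detected on 0 outer and 3 inner arrays, a further DCN probe on 0 and 2 and an ERG probe on 3 and 0. The groups overlapped for each of these probes. Their part in the results was not tested. The labels tie no sample to a separate culture, so the p-values measure only the spread between these arrays, which may be technical. In such pooled cells, fewer cells expressing a gene and less RNA per cell cannot be told apart.

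Most members were readily measured. A probe was tested if it was detected on at least 4 of the 8 arrays, which held for 44 large subunit probes, for 40 genes, and 29 small subunit probes, for 28 genes. Detection on all 8 arrays held for 40 of the 44 and 24 of the 29. The outer arrays detected 74, 76, 71 and 68 of the 91 member probes, and the inner arrays 70, 73, 70 and 70, so that the groups overlapped. Levels are normalised log2 intensities and can be compared between arrays, not between probes. Of the 18 untested probes 11 were detected on no array, 9 of the large and 2 of the small subunit, and these were for MRPL23, for MRPL4, MRPL39 and MRPL43, and for further transcript variants of MRPL27, MRPL55 and MRPS12. No probe was tested for MRPL4, MRPL10, MRPL23, MRPL39, MRPL43, MRPL45, MRPL52 and MRPS18A. For MRPL45 and one probe of MRPL43 the detection p lies off the regular steps of the other probes, and their few detections are not reliable. MRPL45 in particular lay between 7.49 and 9.66 on the outer arrays and between 8.16 and 10.04 on the inner arrays, and had a log2 difference of -0.25 when a filter on intensity admitted it, which missed the threshold.

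No mitochondrial ribosomal protein gene passed the test between outer and inner cells. The comparison asks how expression differs between matrix-attached cells and cells without that contact. All differences are outer minus inner on the log2 scale, from limma fitted to the 6698 tested probes with Benjamini-Hochberg adjustment at 0.05. The fit called 4 probes, 0.0597% of those tested, of which 0 were among the 44 large and 0 among the 29 small subunit probes. At an unadjusted p below 0.05 there were 3 of 44 large subunit probes, 1 higher and 2 lower in outer cells, and 1 of 29 small subunit probes, which was lower. The same threshold held for 8.03% of all tested probes, 4.08% higher and 3.96% lower, so that the members lay near this background.

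Within each subunit, differences of both signs lay close to 0. For the large subunit 21 probes were higher and 23 lower in outer cells, with a median difference of -0.01. For the small subunit 13 were higher and 16 lower, with a median of -0.13, while the median over all tested probes was 0.01. Leaving out outer replicate 3 moved the small subunit median to -0.0047, and the large subunit median was 0.03 without outer replicate 4 or inner replicate 2 and 0.0016 with a larger offset of 50. A difference of at least 2-fold either way was seen for 4 of 44 and 3 of 29 probes, against 18.9% of all tested probes. It was below 0.5 in size for 36 of 44 and 23 of 29. The 95% interval of the difference stayed within a 2-fold change either way for 23 large and 15 small subunit probes, and for the other 21 and 14 it reached a 2-fold change or more. These intervals come from the limma fit with 4 arrays a group and are wider for probes with more spread between replicates.

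**Figure D1:**
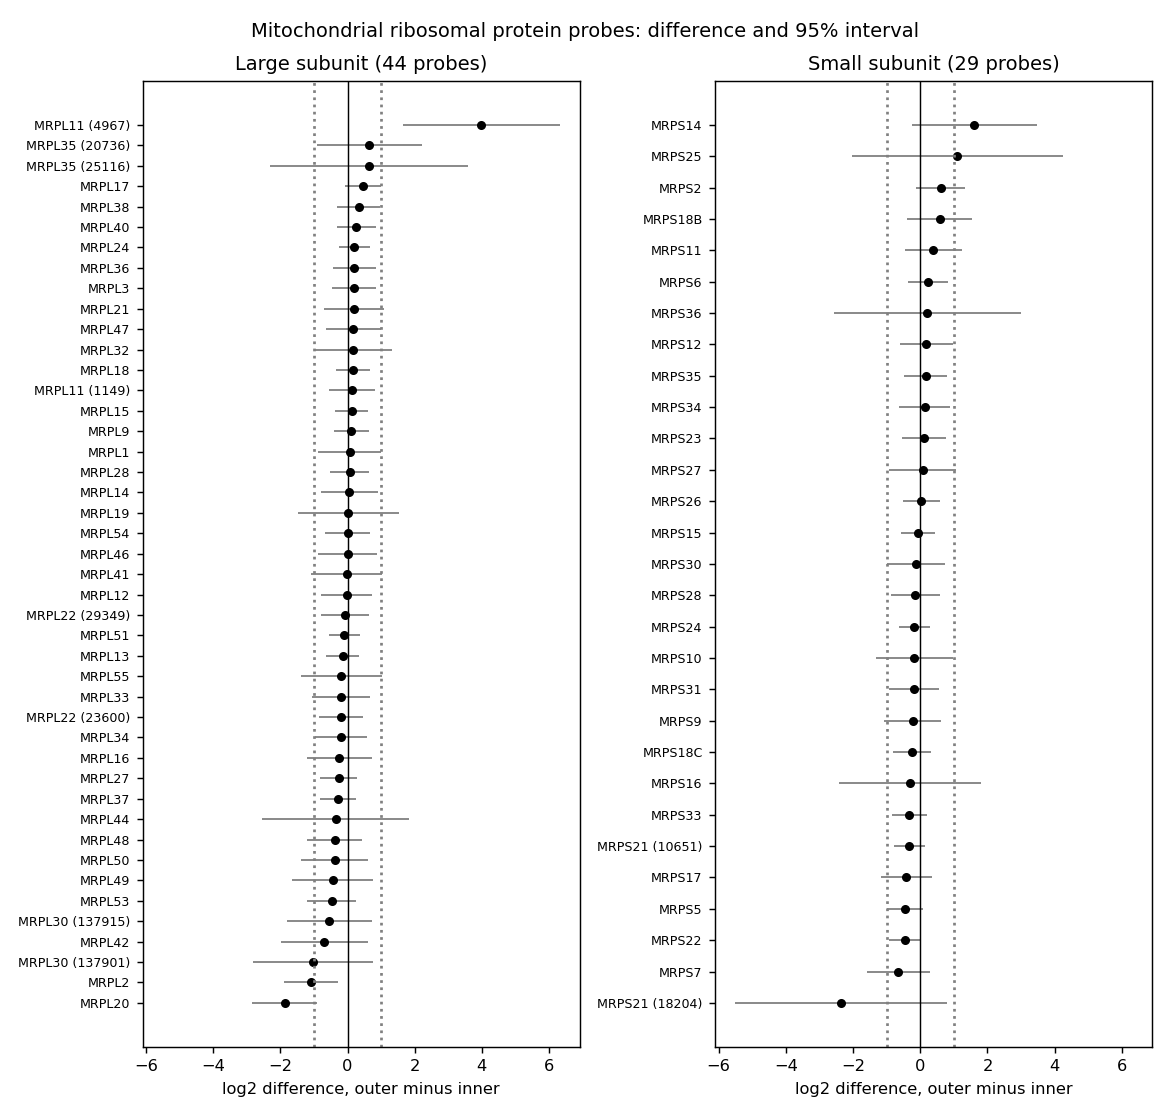
Log2 difference of outer minus inner cells (x axis, log2 units) for each of the 44 large and 29 small subunit probes tested, as points with the 95% interval of the limma fit as lines; the solid line marks no difference and dotted lines a 2-fold change. Points lie on both sides of 0 in both subunits, with 1 probe of MRPL11 at 3.98 and 1 of MRPS21 at -2.36 farthest from it.

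The median spread between replicates was smaller for the members than over all tested probes. The median SD between the arrays of a group was 0.41 for the large and 0.36 for the small subunit, against 0.68 over all tested probes. The median SD of the members was larger than for the subunits of the cytosolic ribosome, at 0.15, and of the respiratory chain, at 0.19. These sets differ in detection: 40 of 44 large and 24 of 29 small subunit probes were detected on all 8 arrays, against 4179 of 6698 tested probes. The part of detection in the spread was not tested. An SD above 1 in at least 1 group was found for 8 large and 5 small subunit probes. MRPS25 and MRPS36 were among them, and ranged from 4.40 to 9.10 and from 4.72 to 8.21 on the outer arrays and from 4.53 to 9.24 and from 4.57 to 8.90 on the inner arrays. Their low values were near background, and they appeared on arrays of both groups.

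The lowest p of the large subunit belonged to MRPL20 (ILMN_859), a protein with a bacterial homologue that binds the ribosomal RNA of this subunit. It had log2 intensities of 8.49, 8.81, 7.93 and 7.12 on the outer arrays and 9.59, 10.04, 9.68 and 10.54 on the inner arrays. Every outer array lay below every inner array. The difference was -1.87 with a standard error of 0.42 and a 95% interval of -2.84 to -0.91, or 3.66-fold more signal in inner cells, and it missed the threshold (limma, adjusted p = 0.286). Before normalization, the deposited intensities were 442.8, 401.2, 276.0 and 142.5 on outer and 584.0, 1320.9, 889.8 and 1356.9 on inner arrays. The authors' deposited table gives a ratio of inner over outer medians of 2.96 for this probe.

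MRPL2 (ILMN_4811), a protein near the peptidyl transferase centre, was the other large subunit member whose outer arrays lay wholly below the inner ones. Its outer values were 9.88, 9.71, 9.47 and 9.32 and its inner values 10.21, 11.61, 10.39 and 10.50. Inner replicate 2 stood above the other inner arrays, and without it the difference of -1.08 became -0.77 (limma, adjusted p = 0.502 with all arrays). Groups that do not overlap were seen for 5.26% of all tested probes and for 3 of 44 large subunit probes. Outer lay below inner for 2 of the 44, against 2.69% of all tested probes, and above for 1, against 2.57%.

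That 1 probe was for MRPL11, a protein at the base of the stalk where translation factors bind, and the 2 MRPL11 probes disagreed. The probe for transcript variant 3 (ILMN_4967) gave 8.13, 9.72, 10.96 and 8.27 on the outer arrays and 7.98, 4.35, 4.35 and 4.47 on the inner arrays. It was detected on 4 outer arrays and on inner replicate 1 alone among the inner ones, so its difference is taken mostly against background. Its 4 outer arrays alone admitted it to the test, so that a difference in this direction is partly built in. The fitted difference was 3.98 with a standard error of 1.01 and a 95% interval of 1.64 to 6.32 (limma, adjusted p = 0.395). With the background estimated from all probes, which draws dim values together, it was 1.33. Without inner replicate 1 no inner array detected it, and the fitted 4.88 is then taken wholly against background and is no bound. The probe for transcript variant 1 (ILMN_1149) gave 9.74, 10.60, 10.46 and 10.01 on the outer and 10.05, 10.27, 10.37 and 9.60 on the inner arrays. These groups overlapped throughout, with a difference of 0.13 (95% interval -0.55 to 0.80).

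**Figure D2:**
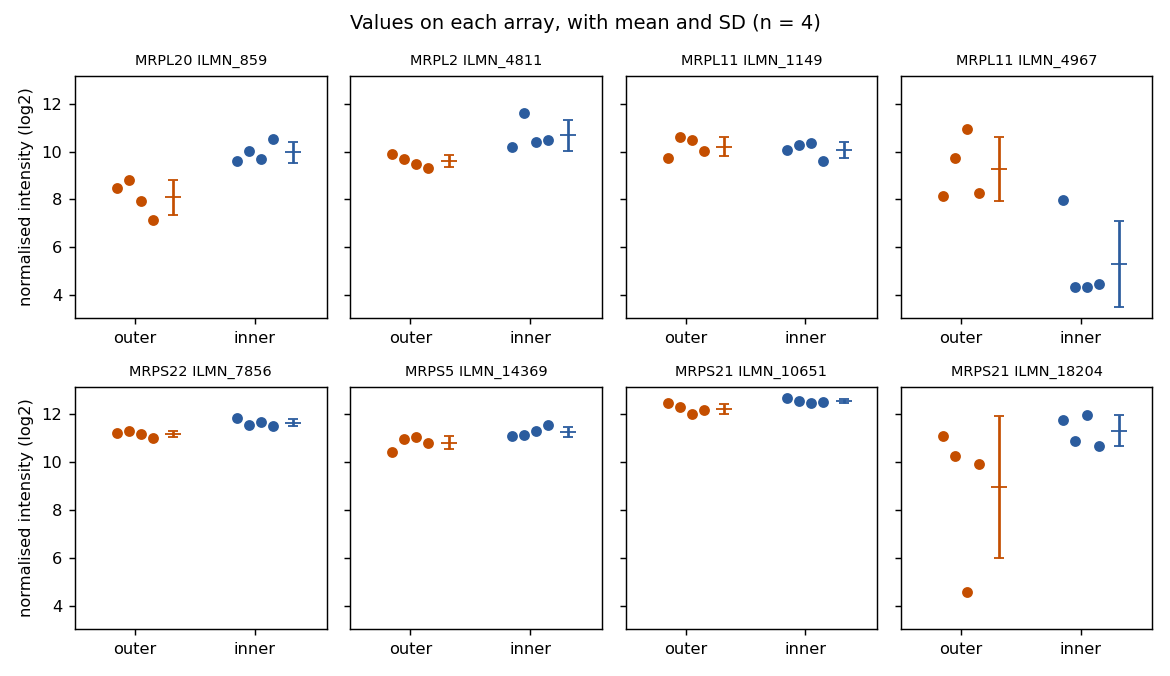
Normalised log2 intensity (y axis) on each outer (orange) and inner (blue) array for 8 probes, with the mean and SD of 4 arrays beside the points. MRPL20, MRPL2, MRPS22 and MRPS5 have all outer arrays below the inner ones, while the paired probes of MRPL11 and of MRPS21 differ from each other in spread and in the size of the difference.

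Other large subunit genes with several tested probes gave differences of the same sign within a gene. MRPL35, a protein with a bacterial homologue, had 2 probes at 0.65 (ILMN_20736, variant 2) and 0.64 (ILMN_25116, variant 1), neither past the threshold (limma, adjusted p = 0.865 and 0.939). Both were low on the same arrays: the former read 10.57, 10.66, 10.75 and 8.69 on outer and 9.83, 7.96, 9.79 and 10.49 on inner arrays, and the latter 8.94, 9.25, 9.93 and 5.13 on outer and 8.52, 4.99, 8.12 and 9.05 on inner arrays. Outer replicate 4 and inner replicate 2 were the lowest of their groups for each. The variant 1 probe was detected on 3 outer and 3 inner arrays, and not on these 2. Without outer replicate 4 the variant 1 probe was at 1.70, and without inner replicate 2 at -0.25.

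MRPL30 also had 2 probes below 0, at -1.04 (ILMN_137901, variant 1) and -0.54 (ILMN_137915, variant 3), and here the arrays did not move together. Variant 1 gave 8.90, 10.25, 8.11 and 6.35 on outer and 9.73, 9.93, 9.06 and 9.03 on inner arrays, and variant 3 gave 9.08, 8.31, 7.54 and 8.50 against 10.33, 8.28, 8.77 and 8.21. The variant 1 difference was -0.35 without outer replicate 4, -1.65 without outer replicate 2 and -0.41 with the background estimated from all probes (limma, adjusted p = 0.807 with all arrays). MRPL22, which lines the exit tunnel for the growing chain, had probes at -0.20 and -0.08. MRPL27, MRPL21 and MRPL55 had 1 tested probe each, at -0.26, 0.19 and -0.19, and their further probes were detected on at most 2 arrays.

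The remaining large subunit members with the smallest p were MRPL17, MRPL53, MRPL42 and MRPL38, and none passed. MRPL17, which in bacteria lies next to the exit tunnel, was at 10.00, 9.65, 9.98 and 9.72 on outer and 9.80, 9.19, 9.21 and 9.31 on inner arrays, a difference of 0.46 (95% interval -0.08 to 0.99) in which inner replicate 1 overlapped the outer arrays. MRPL53 and MRPL42, both without a bacterial homologue, differed by -0.47 and -0.69, and MRPL38, likewise without one, by 0.34 (limma, adjusted p = 0.776, 0.823 and 0.823). The other 27 tested probes of the subunit lay between -0.45 for MRPL49 and 0.26 for MRPL40. Among them MRPL12, which forms the stalk that recruits translation factors, was at -0.03, near background, and MRPL3, a core protein of the subunit, at 0.19.

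In the small subunit MRPS22 (ILMN_7856) had the lowest p. It is a protein without a bacterial homologue, and mutations in its gene cause mitochondrial disease. Outer arrays read 11.22, 11.32, 11.20 and 11.01 and inner arrays 11.87, 11.57, 11.67 and 11.53. All outer values lay below all inner values, in a narrow range with SDs of 0.13 and 0.15. The difference was -0.47 with a standard error of 0.19 and a 95% interval of -0.92 to -0.02, or 1.38-fold more signal in inner cells (limma, adjusted p = 0.618). Over the 18 other settings run the difference was -0.55 to -0.40. Leaving out an array could not change its sign, since the groups do not overlap. The settings all drew on these same arrays.

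MRPS5 (ILMN_14369), which in bacteria lies near the entry of the messenger RNA, showed the same order of groups. It gave 10.42, 10.96, 11.05 and 10.81 on outer arrays and 11.09, 11.12, 11.32 and 11.55 on inner arrays. The gap between the highest outer and the lowest inner array was narrow, and the difference was -0.46 with a 95% interval of -1.0 to 0.08 (limma, adjusted p = 0.687). Groups without overlap and with outer below inner were thus found for 2 of 29 small subunit probes, against 2.69% of all tested probes, and 0 of 29 had outer above inner, against 2.57%.

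MRPS21, a protein with a bacterial homologue, had 2 probes that agreed in sign and not in size. The variant 1 probe (ILMN_10651) read 12.49, 12.31, 12.003 and 12.17 on outer and 12.70, 12.54, 12.49 and 12.54 on inner arrays, with outer replicate 1 level with the lowest inner array. Its difference was -0.33 (95% interval -0.79 to 0.14, limma, adjusted p = 0.755). The variant 2 probe (ILMN_18204) read 11.10, 10.26, 4.58 and 9.92 on outer and 11.76, 10.89, 11.96 and 10.68 on inner arrays. It was not detected on outer replicate 3, and without that array its difference of -2.36 became -0.89 (limma, adjusted p = 0.744 with all arrays and 0.760 without it). Without outer replicate 1 it was -3.07.

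Among small subunit differences above 0, those of MRPS14 and MRPS2 had the smallest p. MRPS14, which in bacteria lies in the head of the small subunit, was at 4.39, 7.01, 7.32 and 8.04 on outer and 4.49, 5.77, 5.72 and 4.35 on inner arrays. It was detected on 3 outer and 2 inner arrays, and outer replicate 1 was at the level of the lowest inner arrays. Its difference of 1.61 (95% interval -0.25 to 3.48) was 2.38 without outer replicate 1 and 0.17 with the background estimated from all probes (limma, adjusted p = 0.673). MRPS2 read 10.02, 10.20, 10.35 and 10.46 on outer and 9.09, 9.29, 9.95 and 10.29 on inner arrays, which overlapped, with a difference of 0.60 (95% interval -0.13 to 1.34). MRPS7, which in bacteria binds the head of the small subunit RNA, differed by -0.65, and MRPS33, without a bacterial homologue, by -0.32. MRPS33 is a further probe whose detection p lies off the regular steps, so that its detection on 2 outer and 4 inner arrays is not reliable. MRPS12, of the decoding centre, differed by 0.18, and its 2 further probes were detected on 0 arrays. The other 20 small subunit probes lay between -0.42 for MRPS17 and 1.10 for MRPS25.

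A split by origin gave opposite leanings in the 2 subunits. Of the large subunit probes for proteins with a bacterial homologue, 18 had differences above 0 and 13 below, with a median of 0.06, and of those without one 3 and 10, with a median of -0.27. Of the small subunit probes with a homologue 6 lay above 0 and 12 below, with a median of -0.18, and of those without one 7 and 4, with a median of 0.07. No probe in these 4 sets was called. These are counts of chosen lists and carry no test.

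**Figure D3:**
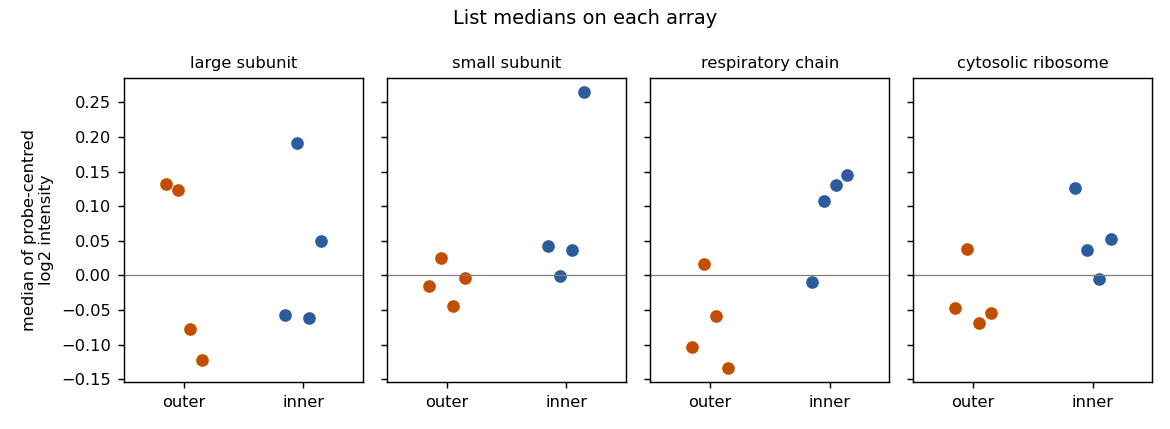
Median over the probes of a list of the log2 intensity centred on each probe's mean over the 8 arrays (y axis), shown for each outer (orange) and inner (blue) array and for 4 gene lists. Outer and inner arrays overlap for the large subunit, from -0.12 to 0.13 against -0.06 to 0.19.

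On single arrays, the median of the large subunit members centred on their own means was 0.13, 0.12, -0.08 and -0.12 for outer and -0.06, 0.19, -0.06 and 0.05 for inner arrays. That of the small subunit was -0.01, 0.03, -0.04 and -0.00 against 0.04, -0.00, 0.04 and 0.26. Inner replicate 4 stood above the other arrays for the small subunit, and was also the highest for the respiratory chain, at 0.14 against 0.13 or less. The members of either subunit did not separate the arrays by group.

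The genes that work with this ribosome were equally without a called member. Of the mitoribosomal proteins with other symbols 3 were tested: ICT1, a release factor built into the large subunit, at 0.22, GADD45GIP1 at 0.14 and CHCHD1 at -0.53. Of 9 mitochondrial translation factor probes 3 were higher and 6 lower in outer cells, with a median of -0.17. MTIF2, the initiation factor, differed by -1.17, TACO1, a translational activator of a cytochrome oxidase subunit, by -0.82 and TUFM, the elongation factor, by 0.29 (limma, adjusted p = 0.665, 0.726 and 0.815). Assembly factors split 5 to 8 with a median of -0.11. The smallest p belonged to NOA1 at -0.74, MALSU1 at 0.59 and DDX28 at -0.62, and the differences of the list ran from -0.74 to 0.85.

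Among the aminoacyl-tRNA synthetases of mitochondria 8 probes were higher and 5 lower, with a median of 0.14. PARS2, which charges the prolyl tRNA, stood out with 8.41, 6.90, 9.82 and 7.17 on the outer arrays and 4.34, 4.37, 4.37 and 4.37 on the inner arrays. It was not well above background on any inner array (limma, adjusted p = 0.178). The mean of its outer arrays was 6.29-fold above the lowest detected signal of the inner arrays. This figure allows for no spread between the outer arrays, whose SD was 1.34, and outer replicates 2 and 4 lay closer to that floor. Like the MRPL11 variant 3 probe it was admitted to the test by its outer arrays alone, so that its p supports nothing further. TARS2, which charges the threonyl tRNA, differed by 0.64 with overlapping groups.

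Genes for transcription and upkeep of mitochondrial DNA had differences below 0 for 6 of 7 probes, with a median of -0.15, against 3307 of all 6698 tested probes. None of the 6 had an unadjusted p below 0.05 (limma), and the direction of the list was not tested. The 1 higher was TWNK, the replicative helicase, at 0.98, with 11.25, 10.44, 10.92 and 10.08 on outer and 9.44, 9.67, 10.23 and 9.42 on inner arrays (limma, adjusted p = 0.516). POLG2, a polymerase subunit, differed by -1.71 and was not detected on outer replicate 1. Regulators of mitochondrial biogenesis were tested for 4 of 9 genes, 2 higher and 2 lower. PPRC1, a coactivator of the PGC-1 family, was at 8.85, 9.03, 8.29 and 7.92 on outer and 6.31, 8.11, 6.14 and 6.13 on inner arrays, a difference of 1.85 in which inner replicate 2 overlapped the outer arrays (limma, adjusted p = 0.437). YY1, a factor that binds promoters of mitochondrial genes, was at -2.49 with 2 outer arrays near background (limma, adjusted p = 0.666). The GABPB1 probe, listed under the symbol GABPB2, was at 2.20 (limma, adjusted p = 0.627). Its inner arrays read 8.41, 4.61, 8.67 and 5.81, and overlapped the outer arrays, at 7.94 to 9.59.

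The cytosolic ribosome and the respiratory chain served as the most similar gene lists. Of 74 cytosolic ribosomal protein probes 26 were higher and 48 lower in outer cells with a median of -0.07, and of 74 respiratory chain probes 18 and 56 with a median of -0.15. No probe of either list was called. Their shares of higher probes, 35.1% and 24.3%, compare with 47.7% for the large and 44.8% for the small subunit and 50.6% over all tested probes. The difference between these shares was not tested.

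**Figure D4:**
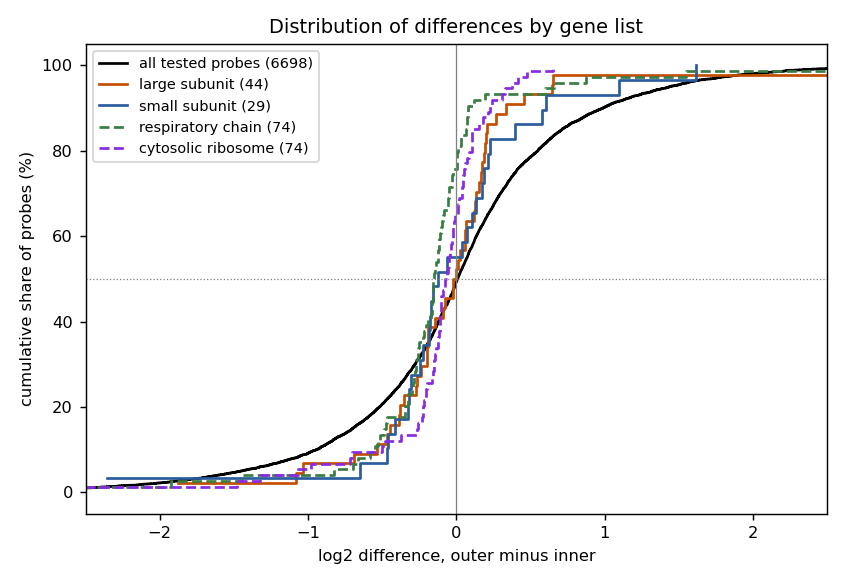
Cumulative share of probes (y axis, %) by log2 difference of outer minus inner cells (x axis, limited to 2.5 either way) for all 6698 tested probes, both mitochondrial ribosomal subunits, the respiratory chain and the cytosolic ribosome. Both subunits cross 50% near 0, at -0.01 and -0.13, and are steeper than all tested probes.

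The promoters of the members were read for short motifs of factors known to act on mitochondrial genes. RefSeq promoter windows (GRCh38.p14), 250 bases before to 50 after an annotated start, were at hand for 68 of the 76 genes. For each gene 1 window was read, at the outermost annotated start where it was listed and otherwise the first listed. Windows at other starts were not read, and MRPS22 and MRPS5 have 3 and 2 windows. On either strand, AAGATGGC, a YY1 motif, was held by 29.4% of the members, in 12 of 40 windows of the large and 8 of 28 of the small subunit. It was held by 6.5% of the genes tested here and 3.0% of all promoters. Its letters contain ATG, and the window runs into the transcript, so that a match can lie at the start codon: 15 of the 21 matches in member windows lay after the transcription start, against 1 of 13 for the ETS motif. CCGGAAGT, a motif of ETS factors such as GABP, was in 16.2% of members, 22.5% for the large and 7.1% for the small subunit, against 9.9% of tested genes and 4.4% of all promoters. The 10-letter NRF1 motif, named here without its letters, was in 10.3% of members, 13.3% of tested genes and 6.3% of all promoters. At least 1 of these 3 motifs was in 45.6%, 26.6% and 12.5%, and no member window held matches of different motifs that share letters. A match is a run of letters and shows no binding.

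Of the 5 members whose groups did not overlap, 4 have a window, of which 170 bases before and 30 after the start are printed, with motif matches in capitals. MRPL20 (chr1:1407264-1407463, minus strand) holds 1 ETS and 1 YY1 match, MRPS22 (chr3:139343824-139344023, plus strand) 2 ETS matches on the opposite strand, and MRPL11 (chr11:66438819-66439018, minus strand) and MRPS5 (chr2:95121974-95122173, minus strand) none.
MRPL20: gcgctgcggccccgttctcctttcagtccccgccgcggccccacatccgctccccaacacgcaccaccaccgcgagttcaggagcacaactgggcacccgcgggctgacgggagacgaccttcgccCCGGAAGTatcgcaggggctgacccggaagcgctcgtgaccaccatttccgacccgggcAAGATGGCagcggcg
MRPS22: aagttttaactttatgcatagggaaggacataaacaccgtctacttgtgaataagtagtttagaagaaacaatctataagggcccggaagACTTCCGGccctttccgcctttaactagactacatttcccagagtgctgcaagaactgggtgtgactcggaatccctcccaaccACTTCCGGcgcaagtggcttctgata
MRPL11: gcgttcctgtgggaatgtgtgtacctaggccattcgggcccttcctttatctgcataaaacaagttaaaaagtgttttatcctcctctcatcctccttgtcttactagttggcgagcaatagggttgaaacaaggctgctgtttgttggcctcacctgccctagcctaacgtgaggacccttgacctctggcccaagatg
MRPS5: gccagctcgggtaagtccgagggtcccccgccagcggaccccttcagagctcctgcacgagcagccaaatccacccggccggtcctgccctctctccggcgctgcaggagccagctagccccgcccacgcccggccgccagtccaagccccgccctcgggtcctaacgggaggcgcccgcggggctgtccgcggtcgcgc
MRPL20, MRPS22 and MRPS5 were lower and the MRPL11 variant 3 probe higher in outer cells, none past the threshold, so members with and without a match are found among the lower ones.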

How the data were processed

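The authors deposited mean bead intensities, not background-corrected or normalised per the file headers, detection p-values, and a ratio of each intensity to its array mean and of inner to outer medians. Bead numbers were deposited and read to check rows. The scanning software is not given in the sources used here.

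Background was corrected by normexp in limma 3.58.1 (R 4.3.3) with its mean and SD taken from the 19052 of 20589 rows whose detection p is a whole multiple of 1 in 708 on all arrays. Among the other 1537 rows 1532 have fractional bead numbers, and including them raises the background mean from 31.1–38.4 to 96.5–126.1. An offset of 16, quantile normalization and log2 followed. Probes detected (p below 0.01) on 4 or more of the 8 arrays were fitted with lmFit and eBayes, without covariates, and adjusted by Benjamini-Hochberg (0.05). The fit was tested on simulated data.

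Members and lists were chosen with earlier results of these data known. Named were, per subunit, the 8 probes with the smallest p, those whose groups do not overlap, genes with several probes, and probes detected on at least 2 more arrays of 1 group, and up to 3 genes of each other list. Results for some genes that this rule would name are not reported here. MRPL3, MRPL12, MRPL40, MRPL45, MRPL49, MRPS17, MRPS25, MRPS36 and the markers of cell types were named after their values were seen. Alternatives were other backgrounds, offsets, scalings, filters and variance models, a replicate block, probes averaged per gene, and fits without each array in turn. After each group's mean was subtracted, same-numbered outer and inner arrays correlated at -0.01 to 0.04, and different-numbered ones at -0.03 to 0.02. Same-numbered pairs 1, 2 and 3 gave 0.039, 0.031 and 0.020, above every different-numbered pair, the highest of which was 0.018. Same-numbered pair 4 gave -0.014. Correlations this small cannot decide whether the numbers pair samples, and the labels do not say.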

Additional observations from a re-analysis of the deposited data

Results flagged for a closer look

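Of 62 groups of 4 arrays, 6 held an array well apart from the rest of its group. About 1 group in 20 would do so by chance if values were normal and groups independent. Tied counts, values near background and groups that share arrays do not meet this, so the 6 cannot be set against that rate. MRPL11 variant 3 (ILMN_4967) was at 7.98 on inner replicate 1, with the other inner arrays at 4.35 to 4.47. MRPL35 variant 2 (ILMN_20736) read 8.69 on outer replicate 4, against 10.57 to 10.75 on the other outer arrays. MRPL27 (ILMN_22762) was at 12.27 on inner replicate 3, against 12.77 to 12.86, and MRPL55 (ILMN_467) at 8.75 on inner replicate 2, against 7.59 to 7.76. Inner replicate 2 detected 73 member probes, against 70 on each other inner array. The centred median of the small subunit was 0.26 on inner replicate 4, against 0.00 to 0.04.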

How the results depend on the processing

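No member passed the threshold in any of the 19 other settings for either subunit (limma; 3 large and 1 small subunit probe at an unadjusted p below 0.05 with all arrays). The count over all tested probes, 4, was 1 with the background from all probes, 2 with an offset of 50, 2 with no filter on detection, 0 with detection on all 8 arrays and 0 with the replicate number as a block. Leaving out 1 array gave 1 to 7 calls over all probes, 0 members, a large subunit median of -0.08 to 0.03 and a small subunit median of -0.17 to -0.0047, the latter without outer replicate 3. The sign of single probes was followed over the fits without 1 array only for members named by the rule. The other 47 tested member probes were not followed. Among those followed, the difference changed sign for MRPL11 variant 1 (-0.029 to 0.28), MRPL55 (-0.45 to 0.24) and MRPL22 ILMN_29349 (-0.27 to 0.15). It also did for MRPS12 (-0.079 to 0.41), MRPL35 ILMN_25116 (-0.25 to 1.70) and MRPL21 (-0.014 to 0.38), and the cause was not tested. MRPL20 lay between -2.11 and -1.42 over all its settings, with adjusted p from 0.232 to 0.604. Dim probes, such as MRPS14 and MRPL11 variant 3, depend most on the background, and 4 arrays a group leave 21 large and 14 small subunit intervals open to a 2-fold change.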
